A study of Mus musculus with 18 samples.

Results

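The 10 genes described here are the metallothionein genes Mt1 and Mt2 and 8 antioxidant genes, Hmox1, Nqo1, Txnrd1, Gclm, Srxn1, Sod1, Sod2 and Prdx1, followed in endothelial cells of the mouse brain cortex. They were found by their symbols in the table of counts per gene, and all 10 had a row among its 21638. The cells were sorted by flow cytometry as CD31+, CD41- and CD45- from adult mice after sham surgery or after occlusion of the middle cerebral artery (MCAO), a model of ischaemic stroke. RNA was sequenced from 6 groups of 3 libraries. Sham and MCAO mice, labelled WT, gave a group from the side of the surgery (ipsilateral) and a group from the opposite side (contralateral). The other 2 groups came from the ipsilateral side of MCAO mice labelled Hdac2 ECKO or Ezh2 ECKO, that is, floxed for Hdac2 or Ezh2 and carrying CreERT2, a recombinase switched on by tamoxifen, under the Cdh5 promoter, which is active in endothelium throughout the body. Every sample of all 6 groups, the WT controls included, carries the label tamoxifen at 75 mg/kg. The design gives 5 doses on days 0 to 4 for the deletions, and the brains were taken on day 7 of stroke. No WT littermates that carry Cre are named, and the strain, the sex and whether animals were pooled were not given in the sources used here.

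Metallothioneins are small proteins rich in cysteine that bind zinc and copper. Their genes are switched on by the metal-sensing factor MTF1, which binds metal response elements, and by glucocorticoids and oxidants. Most of the other members are known targets of the factor NRF2 (encoded by Nfe2l2), which the protein KEAP1 holds back until oxidants or electrophiles modify KEAP1, and which binds antioxidant response elements. In the brain, metallothionein and haem oxygenase RNA is known to increase after ischaemia, in glia and in vessels.

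The upstream windows of Mt2 and Mt1 are shown because these 2 genes gave the clearest differences and lie side by side on chromosome 8. The deposited gene models put Mt2 at chr8:94172664-94173568 and Mt1 at chr8:94179082-94180327, both on the + strand of GRCm38, with 5513 bases between them. The sequences are RefSeq's for GRCm38.p6, from 250 bases before to 30 bases after RefSeq's start, which is not the start of the deposited models. Capitals mark the core of the metal response element, searched as TGCGCNC and TGCACNC on both strands.
Mt2 (chr8:94172368-94172647, + strand): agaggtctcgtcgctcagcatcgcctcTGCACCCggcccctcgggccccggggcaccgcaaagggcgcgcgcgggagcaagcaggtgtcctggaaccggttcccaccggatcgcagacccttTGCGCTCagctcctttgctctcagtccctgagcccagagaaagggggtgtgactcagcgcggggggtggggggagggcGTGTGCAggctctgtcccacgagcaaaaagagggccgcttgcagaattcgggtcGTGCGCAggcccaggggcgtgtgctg
Mt1 (chr8:94178839-94179118, + strand): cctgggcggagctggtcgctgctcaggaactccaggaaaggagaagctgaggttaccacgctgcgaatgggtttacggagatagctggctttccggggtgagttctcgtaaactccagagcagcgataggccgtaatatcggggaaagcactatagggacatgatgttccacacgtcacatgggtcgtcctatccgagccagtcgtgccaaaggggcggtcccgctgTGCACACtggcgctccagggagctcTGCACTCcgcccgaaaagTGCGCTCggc
Over the whole window of 300 bases, 250 before to 50 after the start, Mt2 held 4 matches and Mt1 held 3. At least 3 such matches were found in 1.97% of all 32851 promoter windows of that length, and at least 4 in 0.517%. The antioxidant response element core, searched as TGACNNNGC on both strands, was in the Mt2 window 79 bases before the start (TGACTCAGC, overlapping no capital). It was not in the Mt1 window. Bases more than 50 after RefSeq's start were not searched, so elements near a start further downstream would be missed. The absence of a match therefore holds for this window only and not for the Mt1 promoter as a whole. Windows were given for 9 of the 10 members, 11 in all, and Hmox1 had none. Of these 9 genes, 6 held TGACNNNGC (Mt2, Gclm, Srxn1, Prdx1, Txnrd1 and Sod1), each in 1 window. By window this was 6 of 11, beside 12.4% of all windows. In Gclm 1 of its 3 metal response element matches overlapped the TGACNNNGC match. A match describes these letters and is no evidence that a factor binds there.

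Library totals ran from 25791401 to 57576255 counts, and values are given as CPM, the count relative to the library's total as scaled by the TMM method. A floor of 3 counts equalled 0.0619 to 0.101 CPM. The defining endothelial transcripts were abundant in every library: Cldn5 ran from 260.4 to 2369 CPM and Cdh5 from 170.3 to 542 CPM. A diffuse background, read as the summed CPM of 1466 olfactory and vomeronasal receptor genes, ran from 152 to 2083 CPM, and MCAO contralateral replicate 1 (1889 CPM) and Ezh2 ECKO replicate 2 (2083 CPM) stood apart from the other 16 libraries, which were at or below 716 CPM. The targeted genes did not check the deletion labels, since the table gives 1 value per gene and not the floxed exons. Hdac2 was at 57.6, 85.0 and 87.9 CPM in the libraries labelled Hdac2 ECKO, beside 84.4, 68.2 and 96.1 CPM in MCAO ipsilateral. Ezh2 was at 12.0, 19.7 and 8.41 CPM in the libraries labelled Ezh2 ECKO, all above the 4.45, 7.02 and 7.85 CPM of MCAO ipsilateral. The deletion groups below are therefore named as labelled.

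**Figure D1:**
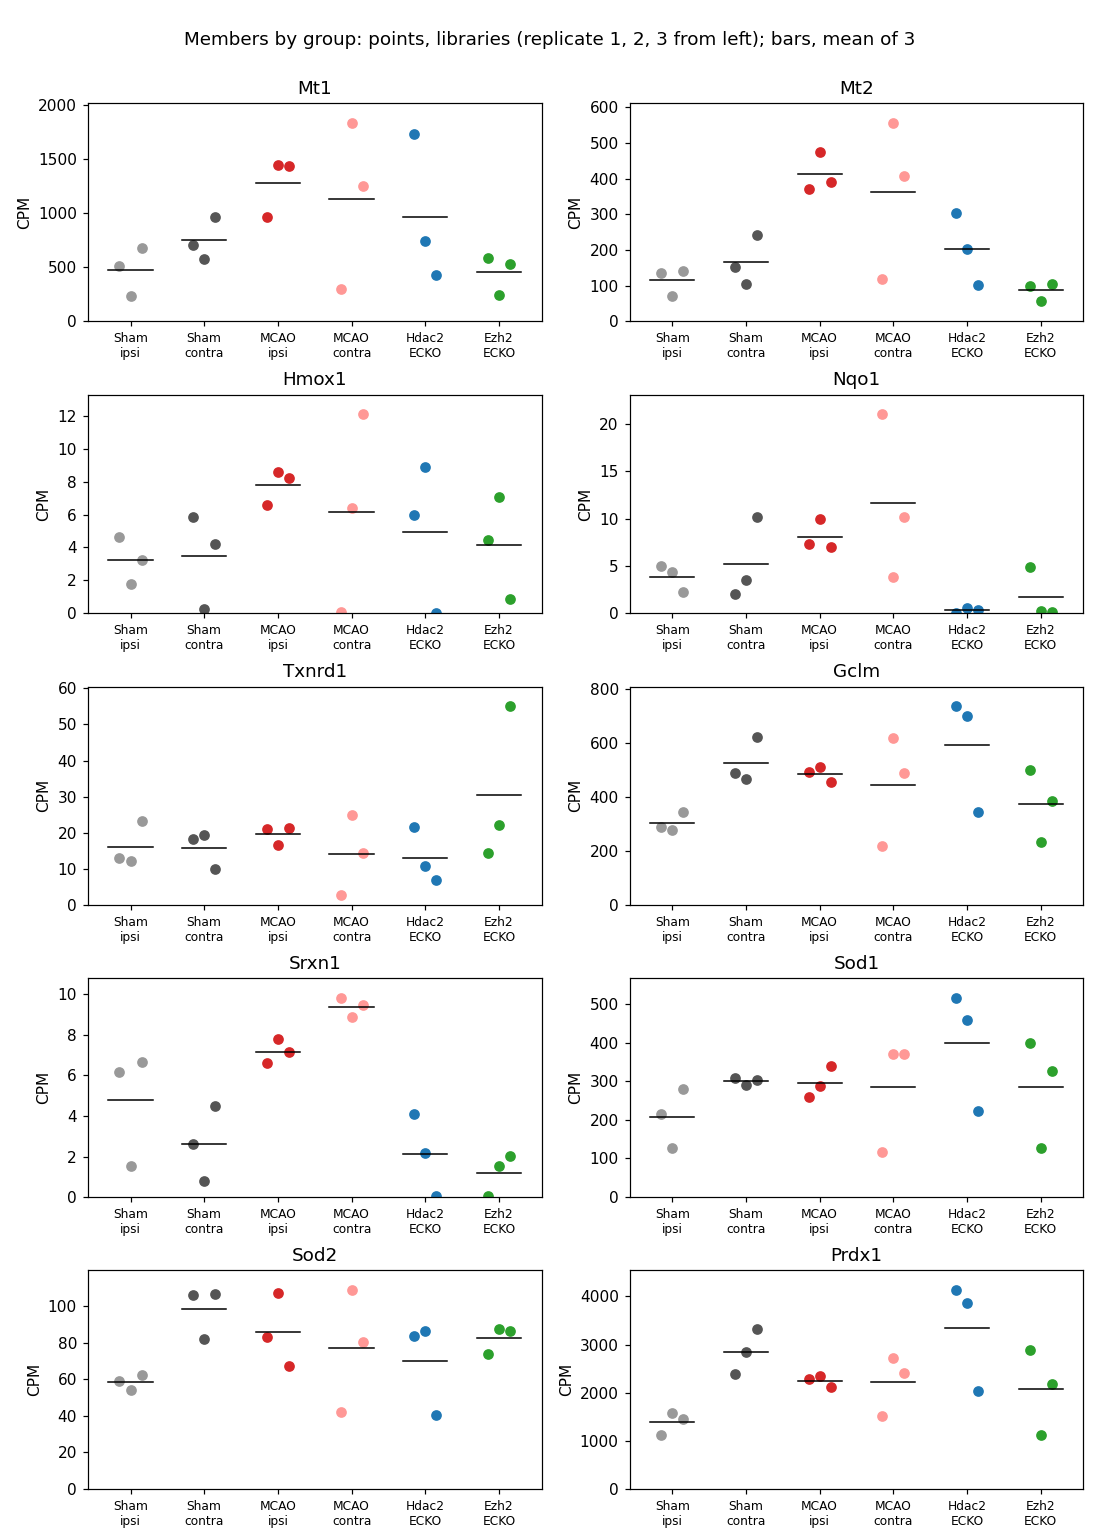
CPM (y axis, linear from 0) of the 10 genes in each library of the 6 groups (x axis). Points are libraries, in the order of replicates 1, 2 and 3, and bars are means of 3. Mt1 and Mt2 are higher in all MCAO ipsilateral libraries than in all sham ipsilateral libraries. Nqo1 lies near 0 in all libraries labelled Hdac2 ECKO and in replicates 2 and 3 labelled Ezh2 ECKO.

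The members covered a wide range of levels. Per kilobase of the deposited gene model, Prdx1, a peroxiredoxin that removes hydrogen peroxide, had the highest median over the 18 libraries (759 CPM per kilobase). Mt1 (557) and Mt2 (249) came next on the same scale, then Gclm (75.7), Sod1 (74.7), Sod2 (8.24), Hmox1 (3.01), Nqo1 (2.65), Txnrd1 (2.48) and Srxn1 (1.52). Neighbours in this order overlapped in their ranges over libraries, for example 367 to 1356 for Prdx1 and 189 to 1478 for Mt1, except Sod1, which lay above Sod2 throughout (29.6 to 129.6 and 4.03 to 10.9). The order of the lower ranks depended on the length used, since the deposited models join all exons. Per kilobase of the main annotated transcript, Prdx1 had a median of 2632 CPM per kilobase, Mt1 1265, Sod1 462 and Mt2 286, so that Sod1 moved ahead of Mt2. Mt1 and Mt2 transcripts were 76.8% identical over 475 aligned bases with no identical run longer than 20 bases.

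On the ipsilateral side, the metallothioneins were the members furthest above sham after occlusion. Mt2 was at 135, 70.1 and 140 CPM in the 3 sham ipsilateral libraries and at 370, 475 and 391 CPM in the 3 MCAO ipsilateral libraries. The groups did not overlap, and the lowest occluded library had more than the highest sham library by a wide margin. The mean was 115 ± 39.1 (SD, n = 3) in sham and 412 ± 55.6 CPM (SD, n = 3) in MCAO, a fitted log2 fold change of 1.84 ± 0.49 (SE). Its unadjusted p was 0.0011, and its adjusted p over 17094 genes by edgeR's quasi-likelihood test was 0.490. Mt1 was at 512, 235 and 681 CPM in sham ipsilateral and at 970, 1446 and 1442 CPM in MCAO ipsilateral, again without overlap. The log2 fold change of Mt1 was 1.43 ± 0.56 (SE, adjusted p 0.640, edgeR). Receptor background was 285, 716 and 463 CPM in sham ipsilateral and 242, 154 and 296 CPM in MCAO ipsilateral. With it as a covariate the log2 fold changes were 0.82 for Mt1 and 1.31 for Mt2, and with each library's trend over gene length removed they were 0.95 and 1.34.

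No member passed the threshold of an adjusted p under 0.05 in this comparison, and neither did any other gene (0 of 17094, or 0%), while 1210 genes had an unadjusted p under 0.05. Mt1 and Mt2 were the 2 members higher at an unadjusted p under 0.05, beside 4.26% of all genes. Where the labels do not say that libraries came from separate mice, such p-values measure only the spread between these samples, which may be technical. Other tests of the same counts made calls: DESeq2 called 69 genes, among them Mt2 (adjusted p 0.0454), and limma voom with sample weights called 1273, among them Mt2 (adjusted p 0.00267), Mt1 (0.0394) and Prdx1 (0.0373). Fitting the 2 groups alone with edgeR called 74 genes, Mt2 among them (adjusted p 0.0249). That fit differed from the main one both in the libraries used and in the genes tested (13870). The calls therefore depended on the test and its setting.

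The remaining members differed less. All 10 members had a log2 fold change above 0, beside 45.9% of all tested genes, and 9 of 10 did with the receptor background as a covariate. The groups did not overlap, with MCAO higher, for 7 of 10 members, beside 13.3% of all genes. Of these 7, Prdx1, Gclm and Sod2 had MCAO ipsilateral means below their means in sham contralateral libraries. These were 2246 against 2854 CPM for Prdx1, 486 against 524 CPM for Gclm and 85.9 against 98.3 CPM for Sod2. The median log2 fold change was 0.69 over the members and -0.09 over all genes. Hmox1, the inducible haem oxygenase, was at 4.66, 1.76 and 3.26 CPM in sham and at 6.57, 8.61 and 8.23 CPM in MCAO, without overlap. Its log2 fold change of 1.27 had an SE of 1.37, larger than the value itself. Nqo1, a quinone reductase, was at 5.01, 4.38 and 2.25 CPM in sham and at 7.29, 9.97 and 6.98 CPM in MCAO, with a log2 fold change of 1.06 ± 1.03 (SE). Gclm, the modifier subunit of the enzyme that starts glutathione synthesis, was at 289, 279 and 345 against 493, 510 and 454 CPM, a log2 fold change of 0.68 ± 0.37 (SE). The spread behind each SE was estimated over all 6 groups.

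Prdx1 was at 1116, 1586 and 1455 CPM in sham ipsilateral and at 2275, 2341 and 2122 CPM in MCAO ipsilateral, without overlap (log2 fold change 0.70 ± 0.36, SE). Sod2, the mitochondrial superoxide dismutase, was at 58.9, 54.2 and 62.4 against 82.9, 107 and 67.4 CPM (0.55 ± 0.36 on the log2 scale, SE). Overlap between the groups was seen for the other 3 members. They were Sod1, the cytosolic superoxide dismutase (log2 fold change 0.51 ± 0.44, SE), Srxn1, which repairs overoxidised peroxiredoxins (0.59 ± 1.05), and Txnrd1, which reduces thioredoxin (0.29 ± 0.64). Adjusted p-values of the 8 antioxidant genes in this comparison ran from 0.715 to 0.921 (edgeR).

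**Figure D2:**
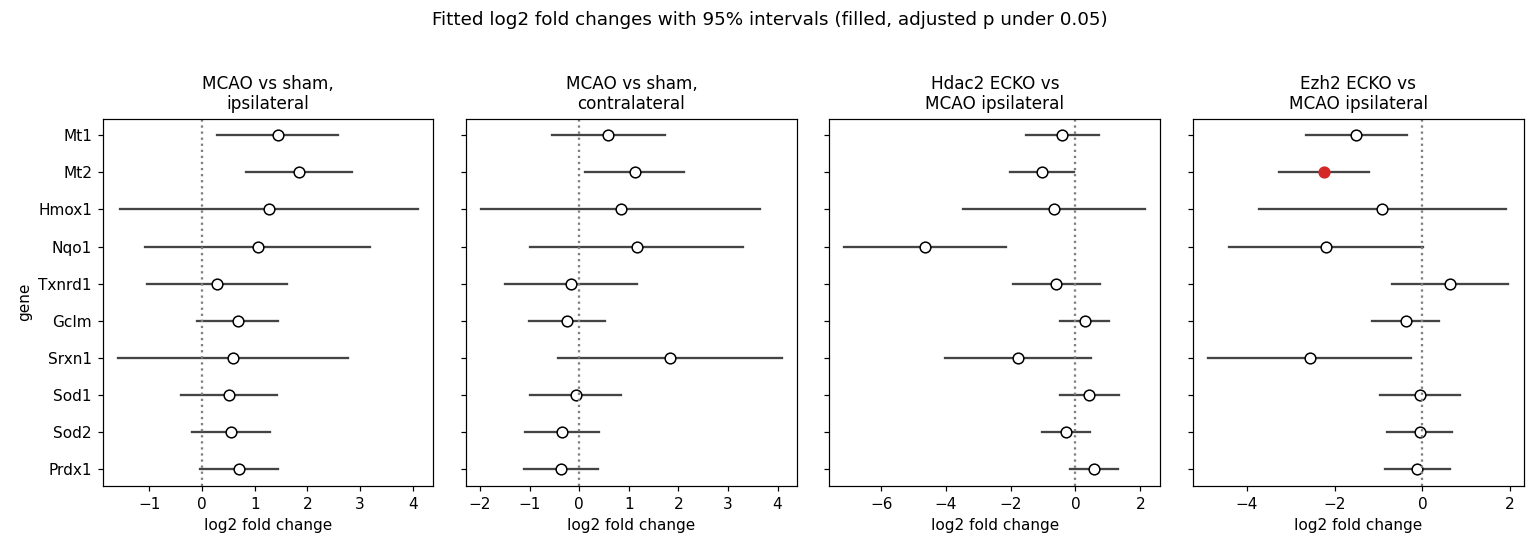
Fitted log2 fold changes (x axis) of the 10 genes (y axis) with 95% intervals from edgeR, in 4 comparisons. Filled points have an adjusted p under 0.05, which holds only for Mt2 in the libraries labelled Ezh2 ECKO against MCAO ipsilateral, and the intervals of Hmox1, Nqo1 and Srxn1 are the widest.

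The opposite side was compared to ask whether the members differed away from the occluded territory. Mt2 was at 152, 103 and 243 CPM in sham contralateral and at 119, 558 and 407 CPM in MCAO contralateral. The groups overlapped through MCAO replicate 1, the library of high receptor background, while the other 2 MCAO libraries were above all 3 sham libraries. The log2 fold change was 1.12 ± 0.48 (SE, adjusted p 0.920, edgeR), and leaving out 1 library moved it from 0.66 (without MCAO replicate 2) to 1.55 (without MCAO replicate 1). Mt1 showed the same layout, with 708, 576 and 967 CPM in sham and 296, 1842 and 1251 CPM in MCAO (0.59 ± 0.55 on the log2 scale, SE). It was 1.06 without MCAO replicate 1 and 0.047 without MCAO replicate 2, so that single libraries set its size.

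Srxn1 was the 1 member whose contralateral groups did not overlap, with MCAO higher, beside 3.65% of all genes. It was at 2.61, 0.81 and 4.47 CPM in sham and at 9.79, 8.89 and 9.47 CPM in MCAO, or 1.83 ± 1.08 (SE) as a log2 fold change (adjusted p 0.920, edgeR). Nqo1 was at 2.02, 3.50 and 10.2 CPM in sham contralateral and at 21.03, 3.83 and 10.2 CPM in MCAO contralateral, with overlap (1.16 ± 1.03, SE). Prdx1 went the other way from its ipsilateral difference, with 2393, 2850 and 3318 CPM in sham and 1508, 2729 and 2418 CPM in MCAO (log2 fold change -0.36 ± 0.36, SE). In all, 5 members were above 0 and 5 below, beside 59.3% of all genes above 0. With sample weights, and likewise without the 2 libraries of high background, 8 members were above 0. None of the 10 was called (0% of all genes, 754 at an unadjusted p under 0.05), and DESeq2 called 26 genes, of which 0 were members.

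Over both sides together, with the mean of the 2 occluded groups against the mean of the 2 sham groups, Mt2 ran from 70.1 to 243 CPM with a median of 138 in 6 sham libraries and from 119 to 558 with a median of 399 in 6 MCAO libraries. Only MCAO contralateral replicate 1 fell within the sham range. Mt2 differed by 1.48 ± 0.34 on the log2 scale (SE), and at an adjusted p of 0.0803 (edgeR) it did not pass. It passed without MCAO contralateral replicate 1 (1.71, adjusted p 0.00795), without both libraries of high background (1.68, 0.00554), with the receptor background as a covariate (1.25, 0.0127) and with DESeq2 (1.48, 0.00276). For Mt1 the log2 fold change was 1.01 with an SE of 0.39 (adjusted p 0.387), and passed without both libraries of high background (1.23, adjusted p 0.0409) and with sample weights (1.07, 0.0108). Srxn1 (1.21 ± 0.75, SE) and Nqo1 (1.11 ± 0.73, SE) were not called under any setting tried. The SEs and p-values printed here take the 6 sham and the 6 MCAO libraries as independent. The labels do not say that the 2 sides came from separate mice. Animals shared between the sides could make these SEs and p-values too small. Summed pericyte and smooth muscle markers, 9 genes, were at 102 to 199 CPM in sham and at 17.3 to 104 CPM in MCAO libraries, with 0 of 9 above 0, a median log2 fold change of -1.17 and 3 lower at an unadjusted p under 0.05. Their part in the values of Mt1 and Mt2 was not tested. Of all genes, 26 were called (0.152%), none of them a member, and all 10 members had log2 fold changes above 0 beside 54.2% of all genes. That count fell to 8 of 10 without a filter on low counts, with the background covariate and without MCAO contralateral replicate 2.

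Several members were lower on the ipsilateral side of sham mice, none of them past the adjusted threshold. Prdx1 in the ipsilateral sham libraries, at 1116 to 1586 CPM, lay below all contralateral sham libraries (2393 to 3318 CPM) and below all MCAO ipsilateral libraries. The log2 difference between the sham sides was -1.04 ± 0.36 (SE, unadjusted p 0.00871, adjusted p 1.00, edgeR). Gclm (304 ± 35.7 against 524 ± 83.7 CPM, SD, n = 3 each) and Sod2 (58.5 ± 4.07 against 98.3 ± 14.0 CPM) were lower on the ipsilateral side in the same way, with log2 differences of -0.79 ± 0.37 and -0.75 ± 0.36 (SE). These were 3 members at an unadjusted p under 0.05 and lower, beside 1.15% of all genes. Sod1 also had sham sides without overlap, which made 4 members lower without overlap beside 6.98% of all genes. No gene was called (0%, 317 at an unadjusted p under 0.05, and 6 by DESeq2). Receptor background was 285, 716 and 463 CPM in sham ipsilateral and 269, 326 and 207 CPM in sham contralateral. Over all settings tried, the background covariate among them, the log2 differences kept their direction. They ran from -1.20 to -0.78 for Prdx1, from -1.06 to -0.47 for Gclm and from -1.02 to -0.56 for Sod2.

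The test of whether the occlusion difference itself differed between the sides, an interaction term, gave Prdx1 1.06 ± 0.51 (SE, unadjusted p 0.0484), Gclm 0.92 ± 0.52 and Sod2 0.90 ± 0.51 on the log2 scale. Mt2 had 0.72 ± 0.67. All adjusted p-values of these 4 were 0.941 (edgeR), with 0% of all genes called and 578 at an unadjusted p under 0.05. A difference between the sides in the response was thus not shown for any member. Within MCAO mice the 2 sides gave 0 called members (0% of all genes, 526 at an unadjusted p under 0.05, and 6 genes by DESeq2). Srxn1 alone had sides without overlap, at 6.61 to 7.77 CPM ipsilateral and 8.89 to 9.79 CPM contralateral, beside 1.88% of all genes lower without overlap (log2 difference -0.39 ± 1.05, SE). The sides of the sham and MCAO mice that carry the same number are not labelled as the same animal. Animals shared between the sides could make the SEs and p-values of the unpaired side and interaction tests too large.

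The libraries labelled Hdac2 ECKO were compared with MCAO ipsilateral libraries, a group that also serves the other comparisons on this side. Nqo1 showed the largest difference of all members: 0.07, 0.60 and 0.29 CPM, from counts of 2, 20 and 10, against 7.29, 9.97 and 6.98 CPM in MCAO ipsilateral. Every library labelled Hdac2 ECKO was below every WT library, of which the lowest was at 2.02 CPM. The fitted difference was 24.9-fold, or -4.64 on the log2 scale (unadjusted p 0.000888, adjusted p 0.273, edgeR), while DESeq2 called it (-4.56, adjusted p 0.00157). Mt2 was at 303, 203 and 102 CPM, all below the lowest MCAO ipsilateral library (370 CPM), at -1.02 ± 0.48 (SE) as a log2 fold change (adjusted p 0.502, edgeR). Mt1 overlapped, at 1737, 746 and 429 CPM against 970, 1446 and 1442 CPM (-0.41 ± 0.55, SE). Leaving out 1 library moved Mt1 from -1.16 (without Hdac2 ECKO replicate 1) to -0.095 (without replicate 3), and Mt2 was at -0.67 with the GC trend removed.

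Srxn1, at 4.10, 2.17 and 0.06 CPM, was the third member lower without overlap in this comparison (-1.77 ± 1.08 on the log2 scale, SE). These 3 of 10 stand beside 10.3% of all genes. Hmox1 was detected at 5.95 and 8.91 CPM in replicates 1 and 2 and had 0 counts in replicate 3, which allows up to 0.0882 CPM there. Prdx1 was at 4128, 3861 and 2036 CPM against 2122 to 2341 CPM in MCAO ipsilateral, and Sod1 and Gclm were likewise high in replicates 1 and 2 and low in replicate 3. Replicate 3 also had the highest receptor background of its group (639 CPM, beside 198 and 325 CPM, without TMM scaling). It had the lowest summed red cell markers as well (49334 CPM, beside 297898 and 251378 CPM, with TMM scaling). The part of either in these values was not tested. No member was called (0.0117% of all genes, 2 in number, and 1683 at an unadjusted p under 0.05).

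The libraries labelled Ezh2 ECKO had the lowest mean Mt2 of all groups, and Mt2 was the 1 member of 10 called in any comparison, beside 1.46% of all genes called in this one and 1.23% called lower. Mt2 was at 99.6, 56.8 and 104 CPM against 370, 475 and 391 CPM in MCAO ipsilateral. The groups were far apart, and the libraries labelled Ezh2 ECKO lay in the range of sham ipsilateral (70.1 to 140 CPM) or below it. The mean of 86.8 ± 26.1 (SD, n = 3) was 4.74-fold lower by the fit, or -2.25 ± 0.49 (SE) as a log2 fold change (adjusted p 0.0337, edgeR). Over all genes the median log2 fold change was 0.17 with TMM scaling and 0.36 with RLE scaling, a shift of 0.19. Relative to that median Mt2 was at -2.42 and -2.44.

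The call on Mt2 rested on narrow ground. It was lost with the receptor background as a covariate (log2 fold change -1.36, adjusted p 0.107), with each library's trend over GC content removed (-1.57, 0.0979), and without any 1 of 5 of the 6 libraries compared (-2.43 to -2.04, adjusted p from 0.0534 to 0.171). It held without MCAO ipsilateral replicate 3 (adjusted p 0.0369), without both libraries of high background, and with DESeq2 (0.00104) and limma voom (0.0229). Over all settings tried, the direction of Mt2 was kept and its log2 fold change ran from -2.43 to -1.36. Receptor background was 268, 2083 and 600 CPM in these 3 libraries, beside 154 to 296 CPM in MCAO ipsilateral.

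**Figure D3:**
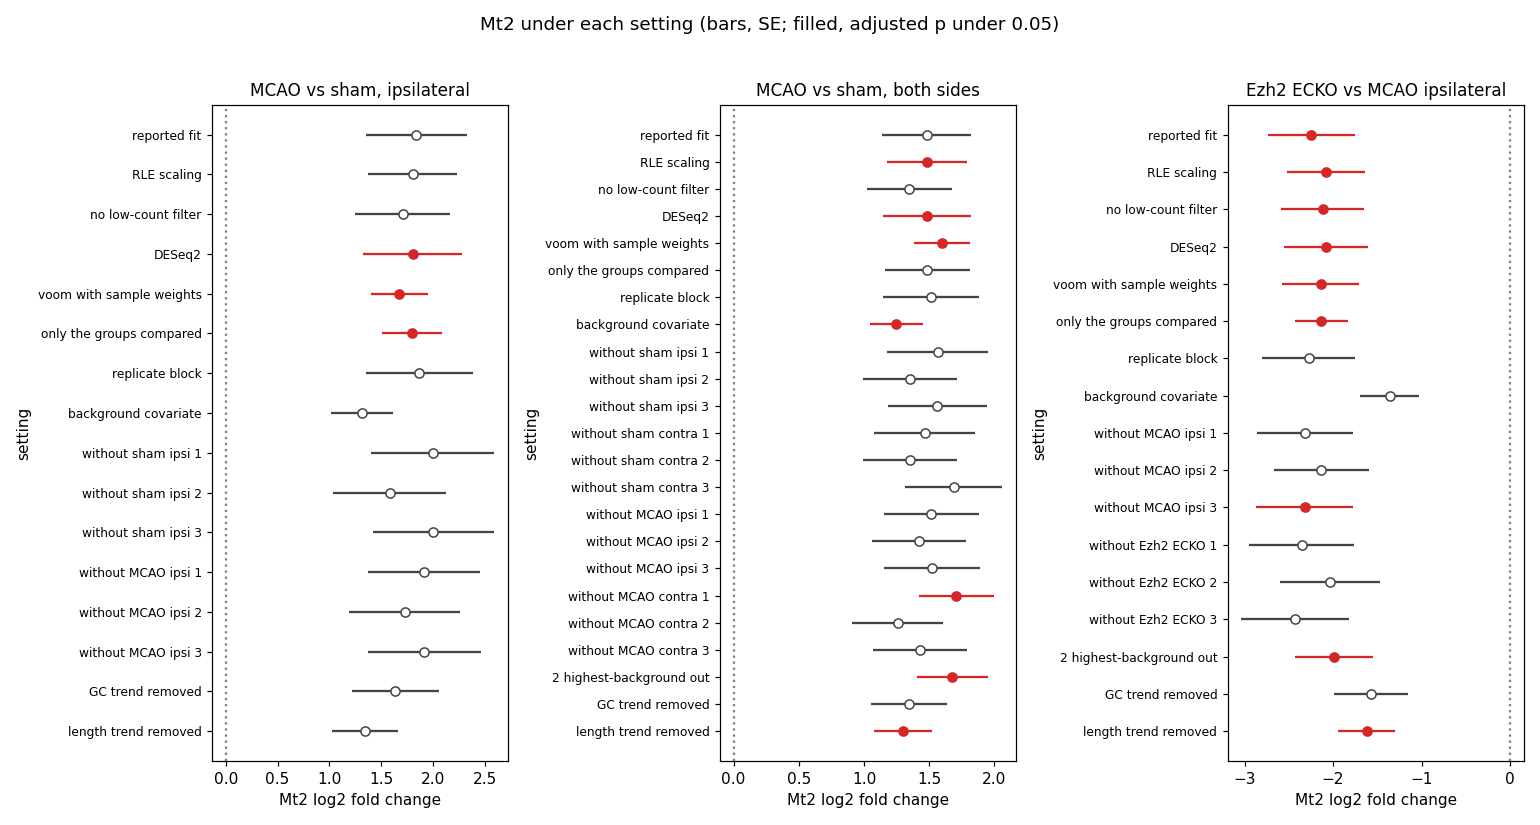
Log2 fold change of Mt2 (x axis) under each setting (y axis) in 3 comparisons, with bars for the SE and filled points for an adjusted p under 0.05. The estimates keep 1 direction in each comparison, above 0 after occlusion and below 0 in the libraries labelled Ezh2 ECKO, while the calls come and go.

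Red cell markers, and the sum of the endothelial markers, moved with this comparison as well. The summed red cell markers, 7 genes, were at 38268 to 65450 CPM in MCAO ipsilateral and at 71.0 to 671 CPM in the libraries labelled Ezh2 ECKO. Of these 7 genes, 5 were called lower. No library of the other groups had a red cell sum below 19225 CPM. The summed endothelial markers, 10 genes, were at 11481 to 13811 CPM against 18091 to 26038 CPM, with 1 of 10, Ly6c1, called lower. Gene by gene that list had no shared direction: 6 of 10 had a log2 fold change above 0, with a median of 0.31 beside 0.17 for all genes. Cdh5 was at 219.9 to 413 CPM against 221 to 255 CPM in MCAO ipsilateral, and Pecam1 at 198 to 276 CPM against 341 to 452 CPM. The part of these shifts in the values of Mt2 was not tested. In sorted bulk samples, fewer cells of a type and less RNA per cell cannot be told apart.

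Mt1 followed Mt2 without a call. Its levels there were 586, 244 and 529 CPM against 970, 1446 and 1442 CPM, without overlap (log2 fold change -1.50 ± 0.56, SE, adjusted p 0.151, edgeR). With the background covariate this was -0.52 (adjusted p 0.581), and with the length trend removed -0.81 (0.349). Srxn1 was at 0.05, 1.54 and 2.01 CPM, and Nqo1 at 4.88, 0.23 and 0.17 CPM, each below all MCAO ipsilateral libraries. Their log2 fold changes were -2.57 ± 1.12 and -2.20 ± 1.07 (SE), with adjusted p-values of 0.213 and 0.264, and Nqo1 reached -5.33 with an adjusted p of 0.0363 without Ezh2 ECKO replicate 1. These 4 members were lower without overlap, beside 15.3% of all genes. Txnrd1 was the exception in level, at 14.5, 22.3 and 55.0 CPM against 16.7 to 21.3 CPM in MCAO ipsilateral, high in replicate 3 alone. Log2 fold changes were below 0 for 9 of 10 members beside 44.6% of all genes, but 4 of 10 were above 0 with RLE scaling, with DESeq2 and without a filter on low counts, and 6 of 10 with the background covariate, so the direction shared by the members depended on the setting. Of all genes, 39 were called higher and 211 lower with TMM scaling, and 119 and 249 with RLE scaling.

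The 2 deletion groups were also set against each other. Mt2 was at 303, 203 and 102 CPM for the label Hdac2 ECKO and at 99.6, 56.8 and 104 CPM for Ezh2 ECKO, with overlap through Hdac2 ECKO replicate 3 (log2 difference 1.22 ± 0.48, SE, adjusted p 0.332, edgeR). The value fell to 0.77 without Hdac2 ECKO replicate 1, to 0.58 with the background covariate and to 0.35 with the length trend removed. Mt1 was likewise higher with overlap (adjusted p 0.469), and its log2 difference was 0.33 both without Hdac2 ECKO replicate 1 and with the covariate. Nqo1 was lower for Hdac2 ECKO with overlap (log2 difference -2.44 ± 1.10, SE, adjusted p 0.416, edgeR). No member was called beside 0.123% of all genes, and 0 of 10 members had groups without overlap beside 12.1% of all genes. A difference of Mt2 between the deletions was therefore not shown, and the 95% interval of its log2 difference ran from 0.23 to 2.22 before any adjustment. Summed red cell markers were at 49334 to 297898 CPM for Hdac2 ECKO and at 71.0 to 671 CPM for Ezh2 ECKO. The part of this difference in the values of Mt1 and Mt2 was not tested.

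Mt2 and Mt1 did not change in a fixed proportion. This was noticed after the values were seen and is given as a description. Within a library, Mt2 had 0.179 to 0.298 counts per Mt1 count in the 6 sham libraries and 0.271 to 0.402 in the 6 MCAO libraries, with means of 0.236 ± 0.043 and 0.335 ± 0.049 (SD). The ratio was above the highest sham library in 5 of 6 MCAO libraries, and MCAO contralateral replicate 1, low in both genes, was among these 5. In the 6 libraries labelled as deletions it ran from 0.170 to 0.271, and 0 of them were above the highest sham library. Mt2 overlaps the antisense gene Gm45774 in GENCODE M21, and reads of the pair cannot be told apart where strand was not used.

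**Figure D4:**
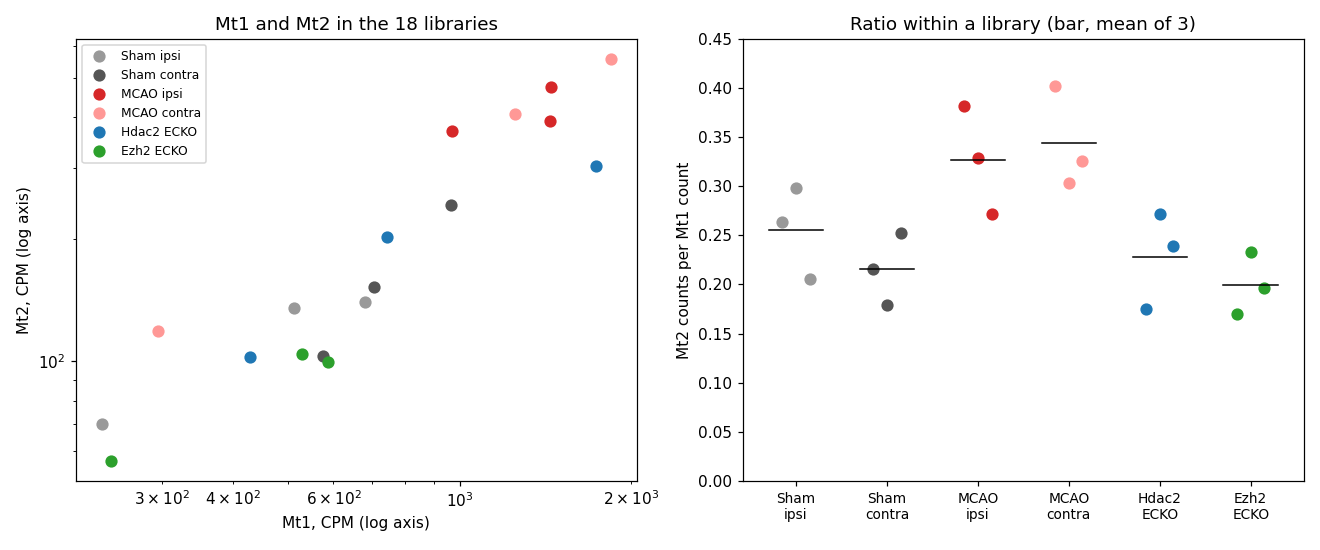
Left, Mt2 against Mt1 in the 18 libraries, in CPM on log axes. Right, counts of Mt2 per count of Mt1 in each library by group (bars, mean of 3), where the MCAO libraries of both sides lie at 0.271 to 0.402 and the sham libraries at 0.179 to 0.298.

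The other genes of the pathway were followed in 8 lists of 90 genes, of which 89 were tested. In the libraries labelled Ezh2 ECKO against MCAO ipsilateral, 4 of the 89 were called lower, beside 1.23% of all genes, and 0 higher, beside 0.228%. The median log2 fold change was -0.59 over the lists beside 0.17 over all genes. In each of the other 8 comparisons 0 of the 89 were called, beside at most 0.152% of all genes. Over both sides of MCAO against sham, 58 of the 89 were above 0 with a median of 0.26 beside 0.06 for all genes, and 14 were higher and 5 lower at an unadjusted p under 0.05, beside 5.52% and 3.57% of all genes. For Hdac2 ECKO against MCAO ipsilateral the median was -0.28 beside 0.11 for all genes, with 32 of 89 above 0 beside 54.8% of all genes.

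The 4 called genes came from 3 of the lists. Ftl1, the light chain of the iron store ferritin, was at 2533, 3522 and 2184 CPM in MCAO ipsilateral and at 507, 436 and 377 CPM in the libraries labelled Ezh2 ECKO (log2 fold change -2.64 ± 0.54, SE, adjusted p 0.0291, edgeR). Near-identical copies of ferritin genes lie elsewhere in the mouse genome, so its counts are uncertain. Gstm1 and Gstp1, glutathione transferases, fell by 1.84 and 1.91 on the log2 scale (adjusted p 0.0449 and 0.0460, edgeR), and Txn2, the mitochondrial thioredoxin, fell by 2.26 (0.0479). For each of the 4, no library labelled Ezh2 ECKO reached the lowest MCAO ipsilateral library. The count of 4 was 0 with the background covariate, with the GC trend removed and without MCAO ipsilateral replicate 1 or 2 or Ezh2 ECKO replicate 3. Without both libraries of high background it was 19, where 1000 of all 15641 tested genes were called.

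By list, glutathione genes had 2 of 18 called lower in that comparison, beside 1.23% of all genes, with a median log2 fold change of -1.14. Thioredoxin and peroxiredoxin genes had 1 of 18 called lower, with a median of -0.96. Haem and iron genes had 1 of 12 called (median -0.53). The lists on NADPH supply (9 genes, median -0.42), NRF2 regulators (9, -0.12), sources of reactive oxygen (10, -0.04), superoxide and peroxide removal (5, -0.76) and metal binding and zinc (8 tested, 0.14) had none called. Of the genes named from these lists by their smallest p over the 9 comparisons, the values here were Taldo1 (-1.69), Cul3 (1.07), Xdh (-1.35), Cyba (-2.58), Park7 (-1.82), Ccs (-1.71), Slc39a10 (0.85) and Slc39a8 (0.95), as log2 fold changes with adjusted p from 0.0813 to 0.145 (edgeR). G6pdx, which starts the pentose phosphate pathway, had a log2 fold change of -2.15 in the libraries labelled Hdac2 ECKO (adjusted p 0.405).

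**Figure D5:**
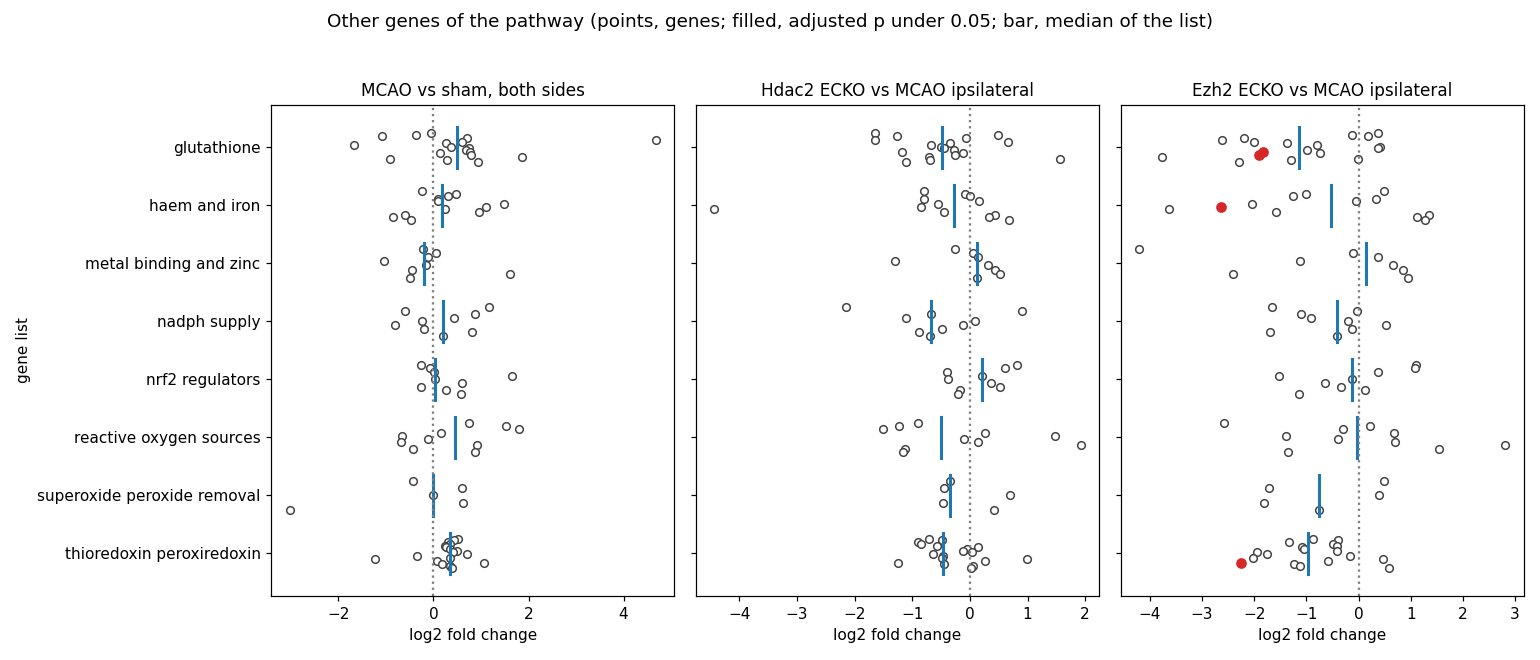
Log2 fold changes (x axis) of the genes of 8 pathway lists (y axis) in 3 comparisons. Points are genes, filled where the adjusted p is under 0.05, and vertical bars are list medians, which lie at -1.14 for glutathione genes and at 0.14 for metal binding and zinc genes in the libraries labelled Ezh2 ECKO.

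The known regulators of the members were expressed and none was called in the 9 comparisons. Nfe2l2 ran from 42.3 to 181 CPM over the 18 libraries (median 90.7), Keap1 from 5.54 to 25.5 CPM (median 17.7) and Mtf1 from 23.7 to 54.1 CPM (median 40.2). Bach1, a repressor of Hmox1, was at 101, 52.6 and 65.8 CPM in the libraries labelled Ezh2 ECKO against 36.2, 25.2 and 40.7 CPM in MCAO ipsilateral, higher without overlap but not called (adjusted p 0.193, edgeR), and it was called without both libraries of high background (log2 fold change 1.31, adjusted p 0.0314). Maff, a small Maf partner of NRF2, came closest in the occlusion comparison. It ran from 5.82 to 14.0 CPM in 6 sham and from 16.3 to 52.0 CPM in 6 MCAO libraries over both sides, without overlap, which 0.421% of all genes showed in that direction (log2 fold change 1.65 ± 0.36, SE, adjusted p 0.0678, edgeR). It passed with DESeq2 (1.71, 0.000541) and with sample weights (1.55, 0.00261). Fth1, the ferritin heavy chain, had 1.49 ± 0.39 there (SE, adjusted p 0.141).

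Gclc, the catalytic partner of Gclm, ran from 11.2 to 43.1 CPM (median 22.3), far below Gclm (220.3 to 734 CPM). Slc7a11, the cystine importer, ran from 0.38 to 15.5 CPM (median 3.72), with log2 fold changes of 0.93 for MCAO over both sides and -2.29 for Ezh2 ECKO against MCAO ipsilateral (adjusted p 0.775 and 0.226, edgeR). Mt3, the metallothionein of neurons and astrocytes, ran from 0 to 3.31 CPM (median 1.12), at a small share of Mt1 and Mt2. Summed astrocyte markers, 8 genes that include Gfap, were at 57.1 to 84.3 CPM in MCAO ipsilateral and at 61.5 to 81.2 CPM in sham ipsilateral, and Gfap itself was at 0.87, 1.99 and 0.62 CPM in MCAO ipsilateral and at 0.17, 0.14 and 0.19 CPM in sham ipsilateral. Summed microglia and macrophage markers, 10 genes, were at 8.55 to 26.0 CPM in MCAO ipsilateral and at 3.46 to 7.41 CPM in sham ipsilateral. The part of these cells in the levels of Mt1 and Mt2 was not tested.

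Across the 18 libraries, which share depth, background and group, Mt1 and Mt2 had the closest relation among the 45 pairs of members (Pearson r of log2 CPM 0.93, with a median of 0.46 over pairs). Gclm followed Prdx1 (0.92) and Sod1 (0.90). Nqo1 had values from -0.43 with Txnrd1 to 0.50 with Srxn1, and Txnrd1 from -0.43 with Nqo1 to 0.58 with Sod2. With group means removed, Nqo1 and Srxn1 were at -0.30. Among the 7814 tested genes whose mean reached 10 CPM, the nearest to Mt2 were Ly6a (0.95), Eif1 (0.94) and Gabarap (0.94), and the nearest to Mt1 were Selenow, Fam221b and Rps3 (0.95, 0.95 and 0.94). The nearest to the others were Psmb1 for Gclm (0.98), Rps13 for Sod1 (0.98), H2afz for Prdx1 (0.96), Bag6 for Srxn1 (0.93), Cdpf1 for Hmox1 (0.88), Sod2 with Tyms (0.87), Txnrd1 with Aco1 (0.86) and Nqo1 with Cers2 (0.83). All 10 members ran against the receptor background across libraries, from -0.86 for Mt1, -0.83 for Gclm and -0.77 for Mt2 to -0.23 for Nqo1. These are descriptions over 18 libraries that share their sources.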

How the data were processed

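The data were 1 table of counts per gene for 18 libraries of sorted cortical endothelial cells, prepared with SMART-Seq v4 PLUS, per the labels' protocols. Counts were deposited by the authors as whole numbers with unequal totals. FastQC, cutadapt, STAR, featureCounts, DESeq2 and the build mm10 are named, per the submitters' processing notes, with versions, strand setting and the handling of reads with several matches not given in the sources used here. Although the table is named normalized, its low values were mostly even (77.3% to 89.4% of values from 1 to 20), as when both mates of a pair are counted, and it was treated as counts. Counting mates makes counting error larger than the counts alone imply, and the floor of 3 counts covers counting error only.

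Genes with at least 10 counts in at least 3 libraries were tested (17094 of 21638). The test was edgeR 4.0.16's quasi-likelihood F-test (R 4.3.3) with TMM scaling, 1 mean per group and all 18 libraries in the fit, and p-values were adjusted by Benjamini and Hochberg over all tested genes in each of 9 comparisons. Genes were called at an adjusted p under 0.05. An SE is the log2 fold change divided by the square root of F. Several comparisons share the MCAO ipsilateral or sham libraries. Alternatives were RLE scaling, no filter, DESeq2 1.42.0, limma 3.58.1 voom with sample weights, only the groups compared, the replicate number as a block, the receptor background as a covariate and leaving out each library. Leaving out both libraries of high background and removing each library's trend over GC content or length were added after the data were seen. Simulated counts with known changes were used to test the script.

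The members and the lists were chosen with earlier results of these data known. All 10 members were named, with up to 2 genes of each list (called genes by adjusted p, otherwise by unadjusted p), Nfe2l2, Keap1, Bach1, Gclc, Mt3, Mtf1 and Slc7a11 always, and the 3 genes most correlated with each member, of which some are printed. Fth1 and the ratio of Mt2 to Mt1 were chosen after their values were seen. In any pair of libraries of a group, at least 79.4% of genes differed in count, so none was counted as a duplicate.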

Additional observations from a re-analysis of the deposited data

Results flagged for a closer look

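The highest and the lowest library of each gene were compared with the others over the 6 sham and over the 6 MCAO libraries, in 20 groups of values in all, and Nqo1 stood out in both kinds of mice. Its highest sham library, contralateral replicate 3, was at 10.18 CPM, and its gap to the next library, relative to the whole range, was above the 95% critical value of Dixon's test for 6 values. The highest MCAO library of Nqo1, contralateral replicate 1, was at 21.03 CPM with a relative gap of 0.630, and this library also had a receptor background of 1889 CPM. The part of the background in that value was not tested. Chance flags about 1 in 20 such groups where values follow a normal distribution, and 2 of 20 met the criterion here. The check was not run on the log2 scale.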

How the results depend on the processing

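Counts of called genes moved more than the estimates did. RLE scaling gave 1 called member and 40 genes over both sides, 4 genes for Hdac2 ECKO against MCAO ipsilateral, and 8 pathway genes for Ezh2 ECKO against MCAO ipsilateral. Without a filter, 2 genes were called on the ipsilateral side and 38 between the deletions. DESeq2 called 1 member and 69 genes on the ipsilateral side, 26 contralateral, 1 member and 337 genes over both sides, 6 each between the MCAO sides, between the sham sides and for the interaction, 1 member and 244 genes for Hdac2 ECKO, 1642 genes with 20 pathway genes for Ezh2 ECKO, and 659 between the deletions. Sample weights gave 3 members and 1273 genes on the ipsilateral side, 7 contralateral, 2 members and 2199 genes over both sides, 1 each between the sham sides and for the interaction, 32 for Hdac2 ECKO, 377 with 12 pathway genes for Ezh2 ECKO, and 4 between the deletions. Only the groups compared gave 1 member and 74 genes on the ipsilateral side, 1 for the interaction, 0 for Hdac2 ECKO, and 485 with 9 pathway genes for Ezh2 ECKO.

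The replicate block gave 4 genes over both sides, 0 members, 12 genes and 0 pathway genes for Ezh2 ECKO (Mt2 -2.27, adjusted p 0.0583), and 9 between the deletions. The labels do not say that a number marks the same mouse. Deviations of same-numbered libraries on the 2 sides correlated at 0.372, 0.349 and -0.125 in sham and at 0.288, 0.381 and 0.036 in MCAO, and over all 45 pairs of the same number 10 were above 0.1 (median -0.045). Over pairs with different numbers the median was 0.014. Since not every pair was above 0.1, the numbers were not taken as pairs, though shared animals between the sides are possible. The block joined each number over all 6 groups. A pairing of the 2 sides within sham or within MCAO mice was therefore not fitted. The background covariate gave 1 gene on the ipsilateral side, where Txnrd1 turned to -0.20, 1 member and 99 genes over both sides, 10 for Hdac2 ECKO, 0 members, 13 genes and 0 pathway genes for Ezh2 ECKO, and 54 between the deletions. Without both libraries of high background there were 1 contralateral gene, 2 members and 498 genes over both sides, 1000 with 19 pathway genes for Ezh2 ECKO, and 115 between the deletions. With the GC trend removed there were 17 genes over both sides and 0 members, 9 genes and 0 pathway genes for Ezh2 ECKO, and with the length trend removed 1 ipsilateral gene, 1 member over both sides, 5 genes for Hdac2 ECKO, and 70 with 1 pathway gene for Ezh2 ECKO.

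Leaving out 1 library gave 0 to 266 genes and 0 to 1 members over both sides (266 without MCAO contralateral replicate 1), 0 to 1 contralateral genes, 0 to 18 for Hdac2 ECKO, 5 to 298 genes, 0 to 1 members and 0 to 8 pathway genes for Ezh2 ECKO, and 9 to 73 between the deletions. The cause of these shifts was not tested. Hmox1, Nqo1 and Srxn1 had libraries with 0 or 2 counts, where levels are not resolved, and 3 libraries a group left an SE of 0.36 to 1.37 for the ipsilateral differences of the members.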
